A study of Mus musculus with 12 samples.

Results

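The 41 genes described here make, load or accompany the major histocompatibility complex (MHC) molecules that show peptides to T cells. They were chosen by name from 14179 genes listed in 3 expression tables of mouse lung epithelial cells: all 24 genes whose symbol begins with H2-, and 17 others of the same pathways (B2m, Tap1, Tap2, Tapbp, Tapbpl, Psmb8, Psmb9, Psmb10, Psme1, Psme2, Erap1, Nlrc5, Ciita, Cd74, Cd274, Cd80 and Cd86). The rule uses names and no measured value. Of the 41, 40 are in all 3 tables and H2-M5 is in the 4-week table alone. By role, 14 are class I chains, 12 serve class I in other ways, 11 belong to class II and 3 are co-signalling ligands. The last, H2-Ke6 (Hsd17b8, a steroid dehydrogenase), has an H2 name from its place in the gene cluster and no known part in presentation. On chromosome 17, where the mouse MHC lies, 29 of the 41 are found.

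RNA was sequenced from lung epithelial cells of C57BL/6 mice aged 8 to 10 weeks, in 12 libraries of 4 groups with 3 libraries each. Everything was instilled into the trachea: saline (the control group), lipopolysaccharide (LPS, a bacterial cell wall component) at 2 mg/kg for 1 day, or bleomycin (a drug that damages DNA and scars the lung) at 1.5 U/kg for 2 weeks or for 4 weeks. All groups share the strain, the age range and the isolation, in which digested lung was stripped of cells bound by antibodies to CD45, CD16/32, CD31, CD90, Ter119 and PDGFRα before EpCAM-positive cells were kept. Whether each library is a separate animal is not stated in the labels; the p-values therefore measure the spread among these libraries, which could be technical. Values are FPKM (sequenced fragments scaled by transcript length and by library size), with no read counts, so the depth of each library is unknown and no counting interval can be given.

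Epithelial markers were abundant: 9 alveolar type 2 genes summed to 17801 to 22722 FPKM in the saline libraries and 7 alveolar type 1 genes to 613 to 948. Airway markers were present too: 4 club cell genes summed to 13126 to 18079 FPKM in saline and 5 ciliated cell genes to 240 to 271. Leukocyte markers were not absent after the depletion. In saline, 12 macrophage and monocyte genes summed to 71.1 to 114 FPKM, 8 of 10 dendritic cell genes (those in all tables) to 60.5 to 94.2, and 8 B cell genes to 94.8 to 232. In bulk RNA, a change in the number of cells of a type and a change in RNA per cell cannot be told apart. Among the 4-week libraries, library 2 stands apart: it lists 6142 of 13518 genes (45.4%) at 0, against 1 to 78 genes in the other 11 libraries, and 15 of the 41 members and the epithelial gene Epcam are among them. Its values are given singly, and 4-week results are given with and without it. The number of 1 other 4-week library fits none of the sample titles, and it is named here the unnumbered 4-week library.

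Class I molecules pair a heavy chain with beta-2 microglobulin (B2m) and carry peptides cut by the proteasome in the cytosol; in most cells, interferons raise the chains, the inducible proteasome subunits and the peptide transporter together. Class II molecules pair an alpha with a beta chain, travel with the invariant chain (Cd74) and take up peptides in the endosome with the help of the H2-DM and H2-DO editors. Class II is kept mainly to dendritic cells, B cells, macrophages and thymic epithelium, but alveolar type 2 cells of mice also carry it.

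In saline, both classes were among the well expressed genes. Of all members B2m had the highest level, with 1267, 995 and 999 FPKM in the 3 libraries (1087 ± 156, SD, n = 3). Cd74 followed with 707, 644 and 594 FPKM (648 ± 56.7). H2-D1, one of the 2 classical class I chains of this strain, stood at 544, 411 and 432 FPKM (462 ± 71.2). The class II chains H2-Eb1, H2-Aa and H2-Ab1 came next, at 356 ± 78.8, 336 ± 67.6 and 317 ± 63.8 FPKM (SD, n = 3 each). H2-Ab1 was the lowest of these chains in each saline library. H2-K1, the other classical class I chain, had 299, 240.5 and 232 FPKM (257 ± 36.5). The non-classical chains H2-Q4, H2-Q6 and H2-T23 had means of 117, 76.4 and 65.0 FPKM. At the low end, H2-M2 was under 1 FPKM in every saline library and H2-M5 reached 0.281 FPKM at most. Saline library 1 was the highest of the saline group for all members named in this paragraph other than H2-M2 and H2-M5. Its B cell markers were also the highest of the group (232 FPKM, against 94.8 at the lowest). So were its sums of macrophage and monocyte (114 FPKM), dendritic cell (94.2), T and natural killer cell (151), neutrophil (556) and endothelial markers (634). Its alveolar type 2 and type 1 sums (17801 and 613 FPKM) were the lowest. The part of these cells in its levels was not tested.

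Class I chains resemble each other closely, so reads can be split between them in ways the values do not show. Over the coding sequence (GENCODE M21), H2-K1 and H2-D1 are 91.5% identical and H2-Q6 and H2-Q7 95.4%. Of all 50-base stretches of coding sequence, the share also found in another H2 gene is 51.1% in H2-Q7, 43.3% in H2-T22, 36.9% in H2-Q6, 28.7% in H2-T23, 23.5% in H2-D1, 19.4% in H2-Q4 and 12.9% in H2-K1. The editors H2-DMb1 and H2-DMb2 share 48.1% of theirs with each other. No such stretch is shared by B2m or by the class II chains H2-Aa, H2-Ab1, H2-Eb1 and H2-Eb2. The sources used here do not give how the authors' counting treated reads that fit several genes, so single values of H2-Q6, H2-Q7, H2-T22, H2-T23, H2-DMb1 and H2-DMb2 are uncertain. A 120-base coding stretch shows the likeness. It starts at coding base 701 of H2-K1, 710 of H2-D1 and 701 of H2-Q7, all on chromosome 17, and capitals mark bases that differ from H2-K1:
H2-K1: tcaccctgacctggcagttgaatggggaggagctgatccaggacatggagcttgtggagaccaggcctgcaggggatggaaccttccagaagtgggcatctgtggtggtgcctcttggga
H2-D1: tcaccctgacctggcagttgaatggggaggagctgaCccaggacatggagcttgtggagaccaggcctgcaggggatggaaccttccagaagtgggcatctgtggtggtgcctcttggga
H2-Q7: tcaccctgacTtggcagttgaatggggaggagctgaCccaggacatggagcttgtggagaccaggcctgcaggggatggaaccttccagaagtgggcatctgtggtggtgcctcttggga
H2-D1 differs from H2-K1 at 1 of the 120 bases and H2-Q7 at 2. A read that lies wholly within the part after the last capital cannot be given to 1 of the 3 genes.

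The 2 classes also differ in the bases before their start sites, which were searched because most class I genes moved together in the results below and class II genes did not move with them. RefSeq promoter sequences (GRCm38.p6, the assembly that mm10 names) were found for 29 of the 41 members, 12 of them class I chains and 6 class II genes. A RefSeq start was accepted within 500 bases of the start of the deposited locus. None was accepted for the class II genes H2-Ab1, H2-DMa, H2-DMb2, Cd74 and Ciita. The distance was 474 bases for Psmb8, 434 for Psmb9, 371 for Psme1 and 364 for H2-D1, and at most 154 (H2-T23) for the others. In the 200 bases before the start, 4 patterns were searched on both strands: AANNGAAA (the core bound by interferon regulatory factors), GGGNNTTCC (NF-kB), GATTGG (the inverted CCAAT or Y box) and TTCNNNGAA (STAT). Capitals mark their matches, and none of the matches shown overlaps another. H2-K1 (chr17:34000334-34000533, minus strand), H2-D1 (chr17:35262894-35263093, plus strand) and H2-Q4 (chr17:35379417-35379616, plus strand) carry the first 3 patterns in the same order:
H2-K1: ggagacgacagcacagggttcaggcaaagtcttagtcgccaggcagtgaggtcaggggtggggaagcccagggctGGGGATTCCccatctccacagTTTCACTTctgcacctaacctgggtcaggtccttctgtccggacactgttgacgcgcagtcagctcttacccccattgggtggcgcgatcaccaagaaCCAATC
H2-D1: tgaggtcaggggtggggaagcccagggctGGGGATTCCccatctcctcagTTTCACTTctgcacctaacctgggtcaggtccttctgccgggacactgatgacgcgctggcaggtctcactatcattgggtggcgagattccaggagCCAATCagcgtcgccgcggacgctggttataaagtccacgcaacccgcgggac
H2-Q4: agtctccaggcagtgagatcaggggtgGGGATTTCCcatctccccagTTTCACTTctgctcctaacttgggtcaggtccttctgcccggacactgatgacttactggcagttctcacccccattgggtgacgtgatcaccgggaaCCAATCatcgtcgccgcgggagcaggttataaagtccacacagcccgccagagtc
B2m, on chromosome 2 (chr2:122147487-122147686, plus strand), holds the interferon regulatory factor core and the Y box:
B2m: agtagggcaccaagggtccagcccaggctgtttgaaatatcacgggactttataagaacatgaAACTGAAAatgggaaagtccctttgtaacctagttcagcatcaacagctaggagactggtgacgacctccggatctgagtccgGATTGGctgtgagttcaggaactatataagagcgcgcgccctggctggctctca
The class II chains H2-Aa (chr17:34287824-34288023, minus strand) and H2-Eb1 (chr17:34305667-34305866, plus strand) have the Y box and no interferon regulatory factor core in this window:
H2-Aa: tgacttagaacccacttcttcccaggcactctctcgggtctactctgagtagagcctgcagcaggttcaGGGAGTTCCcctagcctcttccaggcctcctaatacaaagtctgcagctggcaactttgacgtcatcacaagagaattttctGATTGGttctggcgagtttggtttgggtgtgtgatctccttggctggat
H2-Eb1: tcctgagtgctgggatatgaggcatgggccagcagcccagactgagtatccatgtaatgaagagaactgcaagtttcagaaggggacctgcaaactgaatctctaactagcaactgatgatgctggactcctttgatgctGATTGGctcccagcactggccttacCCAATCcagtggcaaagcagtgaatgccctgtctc

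The interferon regulatory factor core was found in 11 of the 12 class I chains and in 1 of the 6 class II genes, against 17.02% of all 32851 promoters of the same length. Of the other class I genes with a sequence, B2m held the core, while Tap1, Erap1, Psmb8, Psmb9, Psmb10, Psme1 and Psme2 did not; of these 7, all but Erap1 rose after LPS. The core also stood before H2-Q2, which fell after LPS, and H2-Ke6, which was not called. The Y box was found in 7 of the 12 class I chains and in all 6 class II genes, against 12.9% of all promoters. NF-kB matches stood in 6 and 2 genes of the 2 classes, against 4.13%. No member of either of those 2 groups matched the STAT pattern (5.49% of all promoters), which occurs in Psmb8. In H2-K1, H2-D1, H2-Q4, H2-Q6 and H2-Q7 the distance from the NF-kB match to the interferon regulatory factor core was 20 or 21 bases, and from there to the Y box 97 or 98 bases. These chains are near copies, so the shared spacing is not a set of separate observations. The same holds for the counts of class I chains with a pattern. Tap1 and Psmb9 lie head to head, with RefSeq starts 226 bases apart, and 175 bases of their windows are the same. The deposited loci overlap instead: that of Psmb9 reaches base 34187764 and that of Tap1 starts at 34187553. A match of letters describes a window and does not show that a factor binds there.

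**Figure D1:**
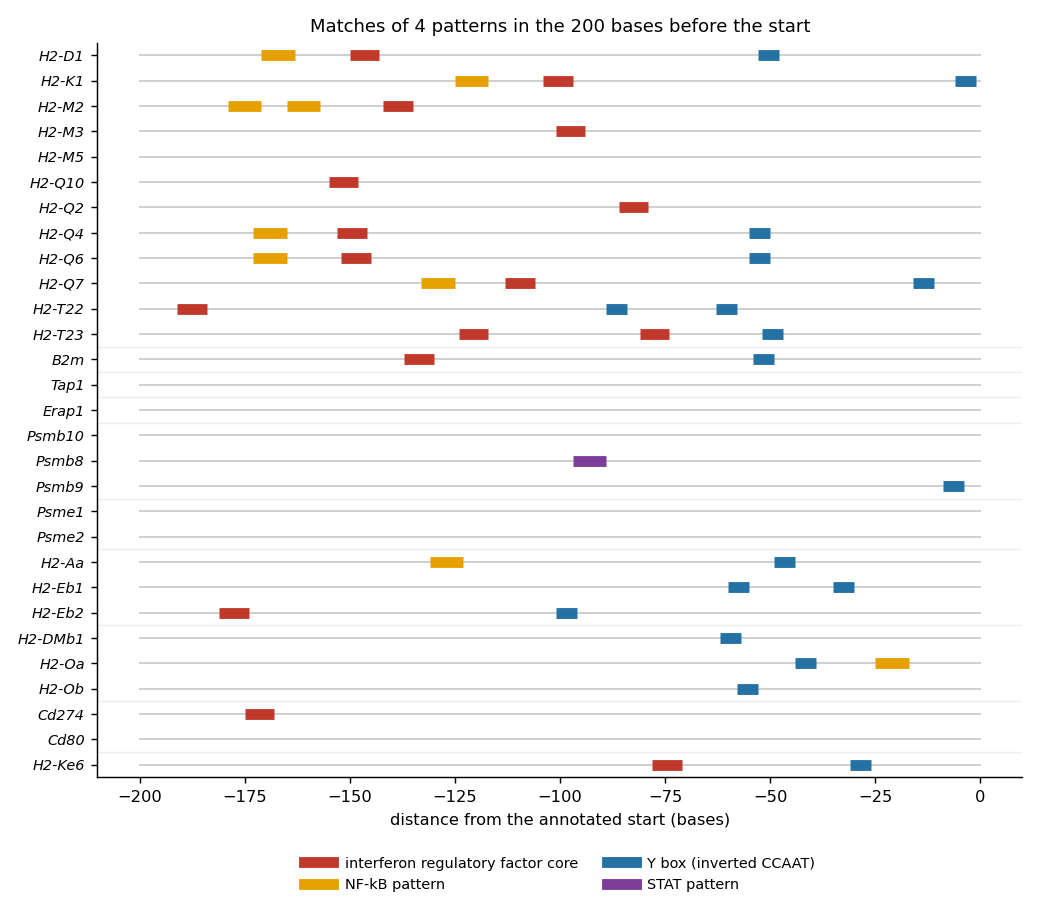
Positions of the 4 patterns in the 200 bases before the annotated start of the 29 members with a RefSeq promoter sequence, by distance from the start in bases; thick bars are matches, grey lines are the windows, and genes are ordered by role. The red bars of the interferon regulatory factor core fill 11 of the 12 class I chains at the top, and the blue Y boxes all 6 class II genes.

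At 1 day after LPS most of the class I pathway was higher than in saline, and most class II genes showed no call. In limma's moderated test on log2(FPKM + 1), with p-values adjusted by Benjamini-Hochberg across 12456 genes and calls at 0.05, 26 of the 40 members tested rose and 2 fell. Among all genes tested, 14.2% rose and 25.9% fell. The median log2 change was 1.01 over the members and -0.22 over all genes. Every LPS library lay above every saline library in 25 of the 40 members and in 2478 of all 12456 genes. By class, 22 of 25 class I pathway genes rose (median log2 change 1.36) and 1 fell, 1 of 11 class II genes rose and 1 fell (median 0.00), and all 3 co-signalling ligands rose. H2-M2 passed the filter on low values through the LPS libraries alone, so it had to differ. Without it 25 of 39 members and 21 of 24 class I pathway genes rose (median log2 change of the latter 1.38). Other scalings moved the median of all genes to between -0.37 (equal totals, with 1225 higher and 3669 lower against 1770 and 3232 as deposited) and -0.02 (median ratio, 2441 higher and 2195 lower), with -0.06 under quantile normalization (2134 higher and 2546 lower). The members' part of the summed FPKM was 1.16% to 1.56% in saline and 1.89% to 2.43% after LPS. In the bleomycin libraries of 2 weeks it was 1.49% to 2.03%, which overlaps both ranges.

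**Figure D2:**
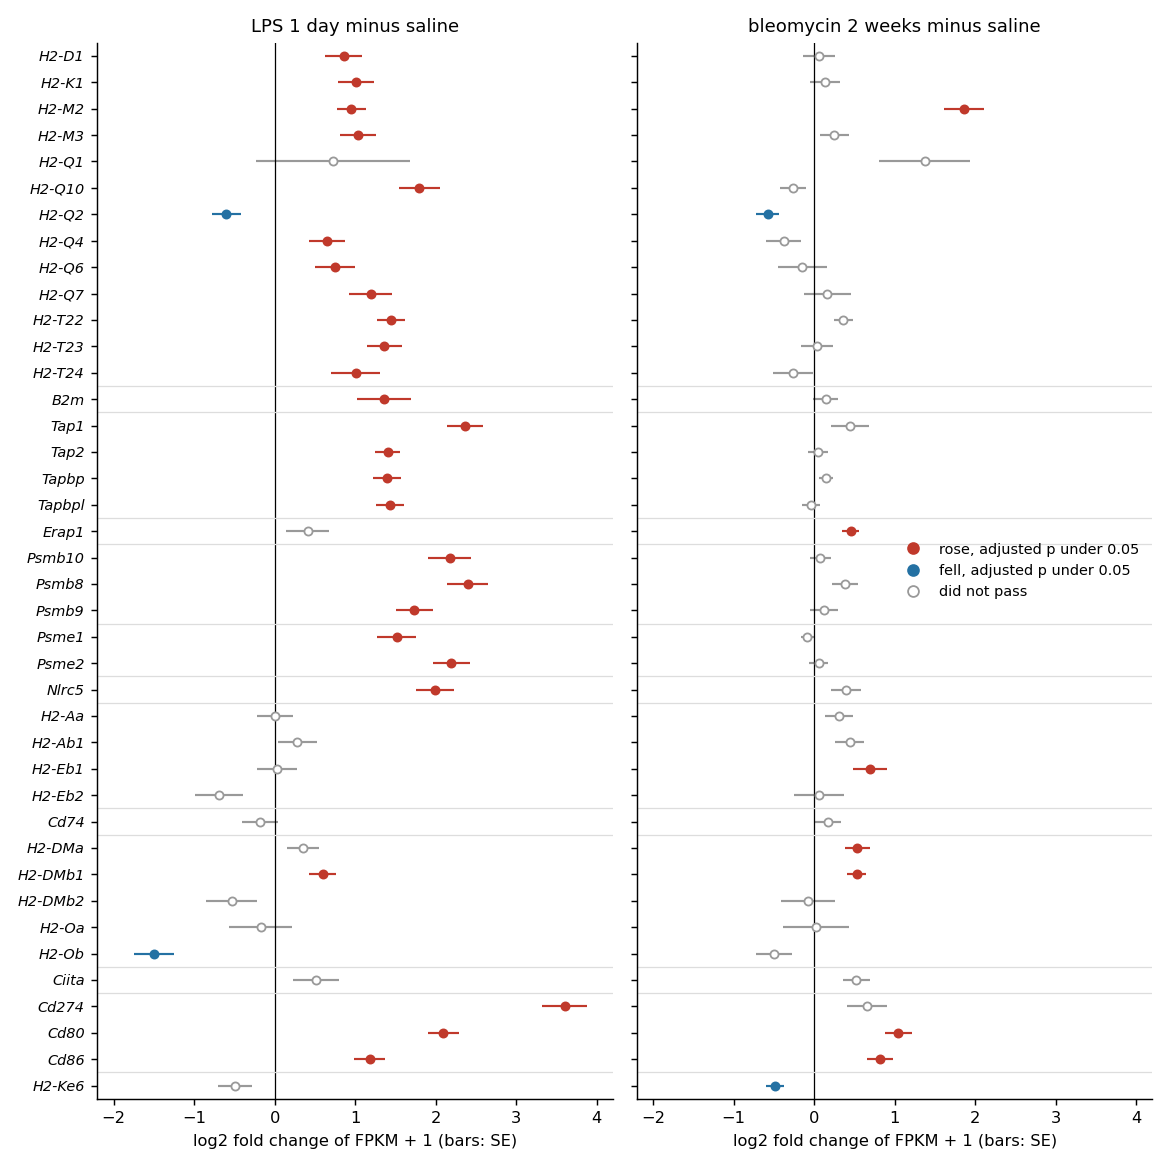
Log2 fold changes of FPKM + 1 against saline for the 40 members tested, after LPS (left) and 2 weeks after bleomycin (right); points are limma estimates, bars are standard errors, filled points passed an adjusted p of 0.05 and grey lines part the roles. On the left 26 red points lie to the right of 0, and H2-Aa, H2-Ab1, H2-Eb1 and Cd74 lie near 0. On the right 7 genes are red and most points lie close to 0.

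Of the class I chains, the classical H2-K1 had 413, 553 and 595 FPKM after LPS, all above its saline values. H2-D1 had 691, 915 and 907 FPKM, also with no overlap. Their log2 changes were 1.01 ± 0.22 (SE, adjusted p = 0.00838) for H2-K1 and 0.86 ± 0.23 (adjusted p = 0.0199) for H2-D1. Several non-classical chains moved as much or more. H2-T23 (Qa-1, the ligand of the inhibitory receptor NKG2A on natural killer cells) rose from 79.8, 55.9 and 59.2 FPKM to 134, 180.0 and 191 (log2 change 1.36 ± 0.21, adjusted p = 0.0017). H2-T22, whose product is bound by some gamma-delta T cells, rose from 26.2, 21.2 and 21.96 to 56.8, 72.9 and 64.6 FPKM (1.44 ± 0.17, adjusted p = 0.000419). H2-M3, which presents formylated peptides of bacteria and mitochondria, went from 18.1, 11.7 and 12.8 FPKM to 26.2, 25.9 and 38.2 (1.03 ± 0.22, adjusted p = 0.00734). H2-Q7 and H2-Q6, which code for Qa-2, rose by 1.19 ± 0.27 and 0.75 ± 0.25 on the log2 scale. H2-Q7 had 38.8, 21.8 and 21.0 FPKM in saline and 47.2, 74.1 and 64.9 after LPS, and H2-Q6 had 107, 60.6 and 61.3 and then 108, 144 and 124. H2-Q4 rose from 153, 103 and 96.3 to 171, 170.0 and 204 FPKM (0.65 ± 0.22, adjusted p = 0.0419). In H2-T24 the groups overlapped, with 10.2, 4.34 and 6.21 FPKM in saline and 18.0, 9.96 and 15.8 after LPS (1.01 ± 0.30, adjusted p = 0.0284).

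Among the scarce chains, H2-Q10 rose to 5.34 to 10.3 FPKM from 0.952 to 1.99, H2-M2 had 1.74 to 3.14 FPKM, against values under 1 in saline, and H2-Q2 fell to 1.05 to 1.97 from 2.42 to 2.96. H2-Q1 ranged from 0 to 18.7 FPKM within the LPS group and did not pass. Calls on several abundant chains depend on single libraries. Without saline library 2 or 3, adjusted p reached 0.0568 for H2-K1 and 0.069 for B2m, and H2-D1 lost its call without either of them or without LPS library 3 (up to 0.111). H2-Q4, H2-Q6, H2-T24 and H2-Q2 also lost theirs in 3 to 5 of the 6 fits that leave out 1 library, and H2-Q7 did so without LPS library 3 (0.0506). In those 6 fits, the calls of H2-T22, H2-T23, H2-M3 and H2-Q10 were kept. H2-M2 was tested in 3 of them. Under quantile normalization H2-D1, H2-Q4, H2-Q6 and H2-Q2 did not pass, and with equal totals H2-Q4, H2-Q6 and H2-T24 did not; no direction changed.

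B2m, the light chain that every class I molecule needs, was measured at 2017, 2532 and 4199 FPKM after LPS (2916 ± 1140.3, SD, n = 3). The log2 change was 1.36 ± 0.34 (adjusted p = 0.013). LPS library 3 was far above the other LPS libraries, and all were above saline. Per FPKM of H2-K1 and H2-D1 summed, B2m was 1.50 to 1.53 in saline and 1.73 to 2.79 after LPS.

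**Figure D3:**
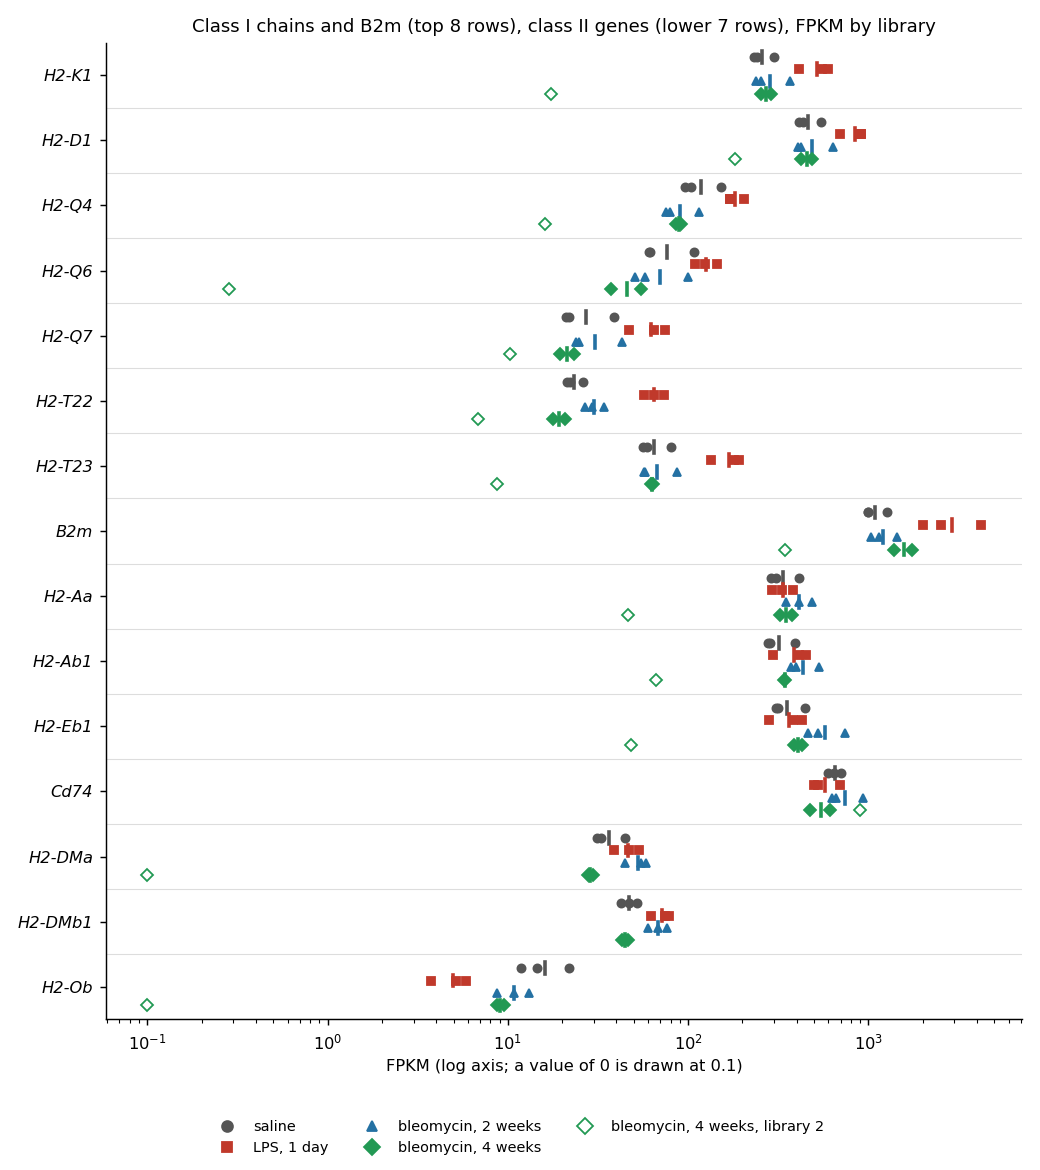
FPKM of class I chains and B2m (top 8 rows) and of class II genes (lower 7 rows) in each of the 12 libraries, on a log axis; each symbol is 1 library, vertical ticks are group means, and the open diamond is 4-week library 2, which is left out of the mean. The red LPS squares lie to the right of the saline circles in the class I rows and overlap them for H2-Aa, H2-Eb1 and Cd74.

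The machinery that cuts, carries and loads class I peptides rose in all 9 of its transport, loading, immunoproteasome and activator genes, by 1.40 to 2.39 on the log2 scale. Tap1, which forms the peptide transporter of the endoplasmic reticulum with Tap2, had 7.91, 5.57 and 4.501 FPKM in saline and 35.4, 28.0 and 40.3 after LPS. That is a log2 change of 2.36 ± 0.22 (adjusted p = 0.000148). Tap2 rose from 26.2, 23.4 and 23.2 FPKM to 61.3, 67.3 and 68.6 (1.40 ± 0.15, adjusted p = 0.000275), with little spread within either group. Tapasin (Tapbp), which holds empty class I at the transporter, rose from 91.4, 81.2 and 83.6 FPKM to 201, 222 and 258 (1.40 ± 0.18, adjusted p = 0.000583). Its relative Tapbpl (TAPBPR), a peptide editor, rose from 18.4, 14.2 and 15.3 to 45.6, 39.1 and 48.9 FPKM (1.43 ± 0.17, adjusted p = 0.00046). All 4 genes stood apart from saline in every library. Erap1, which trims peptides in the endoplasmic reticulum, had 25.5, 11.3 and 17.8 FPKM against 13.1, 11.2 and 14.2 in saline and did not pass (0.41 ± 0.27, adjusted p = 0.243).

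The 3 inducible proteasome subunits, which replace the constitutive ones when the immunoproteasome is built, all rose. Psmb8 (LMP7) had 32.4, 22.7 and 23.8 FPKM in saline and 96.8, 164 and 175 after LPS (log2 change 2.39 ± 0.25, adjusted p = 0.000245). Psmb10 (MECL-1) had 59.7, 47.0 and 44.5 and then 154, 304 and 256 FPKM (2.17 ± 0.26, adjusted p = 0.000492). Psmb9 (LMP2) was the scarcest, at 7.63, 5.05 and 5.18 and then 19.0, 19.0 and 28.8 FPKM (1.74 ± 0.23, adjusted p = 0.000691). The proteasome activator PA28 is made of Psme1 and Psme2, which rose from 50.6, 43.6 and 45.6 to 93.8, 176 and 148 FPKM (1.51 ± 0.24, adjusted p = 0.00167) and from 52.0, 42.4 and 42.0 to 154, 223 and 272 FPKM (2.19 ± 0.23, adjusted p = 0.000232).

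The constitutive subunits that these replace rose as well, but by less. Psmb5, Psmb6 and Psmb7 had log2 changes of 1.04, 1.06 and 0.94, the only 3 of 6 genes in the constitutive proteasome list to pass. Set against its constitutive partner within each library, Psmb8 was 0.276 to 0.394 of Psmb5 in saline and 0.651 to 1.101 after LPS. Psmb10 was 1.58 to 2.39 times Psmb7 in saline and 3.46 to 4.96 times after LPS, again without overlap. The ratio of Psmb9 to Psmb6 overlapped, at 0.0815 to 0.119 in saline and 0.114 to 0.204 after LPS. In an exact two-sided permutation test over libraries, the first pair of ratios gave p = 0.1 each, the smallest that 3 against 3 libraries allow, and the third 0.2; adjusted over the 18 ratio tests made, these are 0.257 and 0.36.

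Nlrc5, the transactivator of class I genes, was scarce in saline at 2.77, 1.61 and 1.56 FPKM and rose to 11.6, 8.03 and 12.9 FPKM after LPS (log2 change 1.99 ± 0.24, adjusted p = 0.000419). Its class II counterpart Ciita had 3.49, 2.23 and 2.74 FPKM in saline and 5.86, 2.39 and 5.81 after LPS, where library 2 lay within the saline range. Ciita did not pass (0.51 ± 0.29, adjusted p = 0.177).

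**Figure D4:**
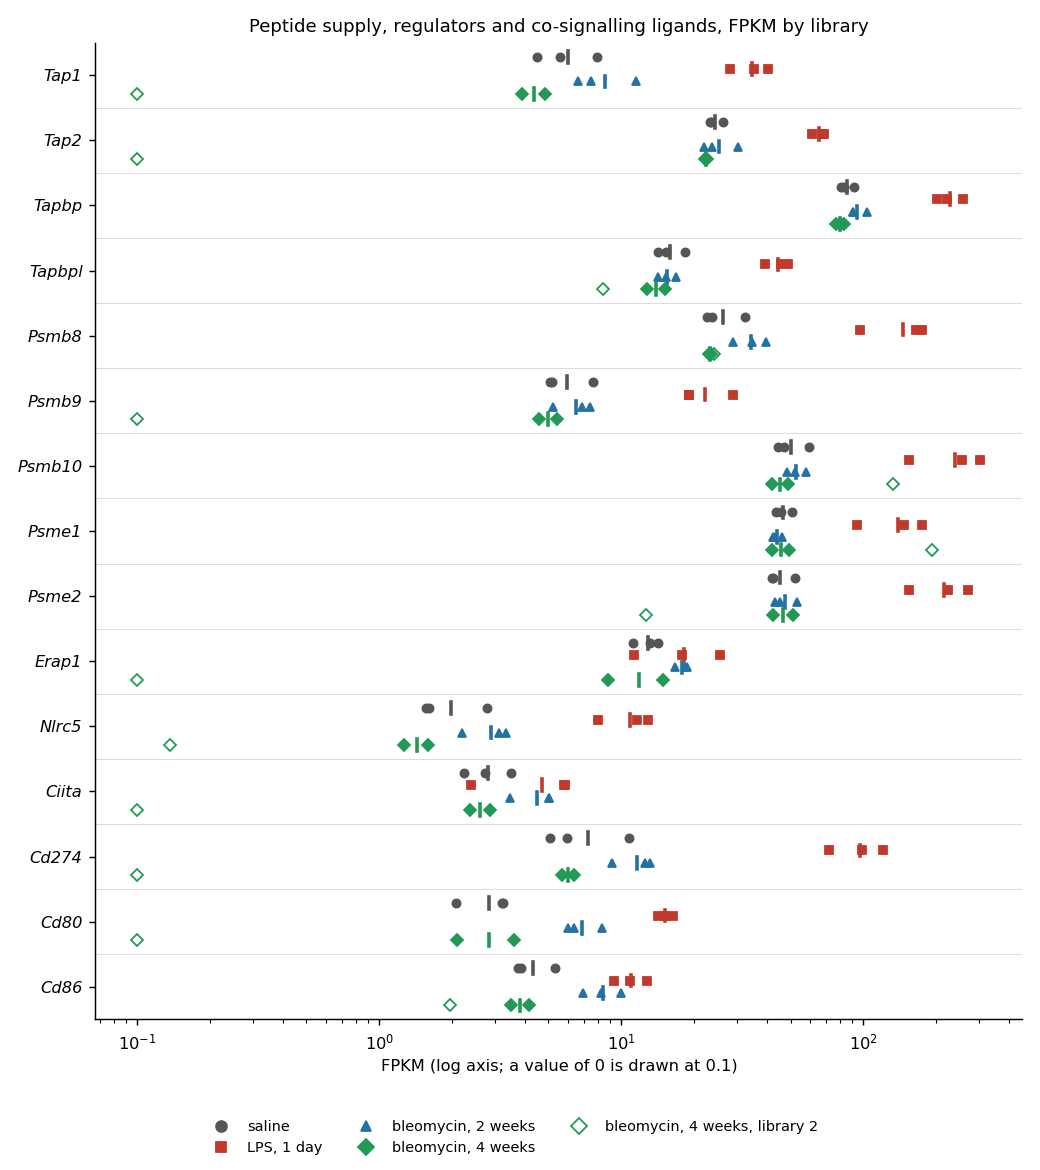
FPKM of the peptide supply genes, the regulators Nlrc5 and Ciita and the co-signalling ligands in each of the 12 libraries, on a log axis; symbols, ticks and the open diamond are as for the chains. The LPS squares lie apart from all saline circles for Tap1, Tap2, the proteasome genes, Nlrc5 and the 3 ligands, and overlap them for Erap1 and Ciita; the 2-week triangles lie near the saline circles in most rows.

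The class II chains did not follow. H2-Aa had 290.2, 332 and 380.1 FPKM after LPS against 413, 308 and 287 in saline, a log2 change of 0.00 ± 0.22 (SE, adjusted p = 0.996). H2-Ab1 had 297, 411 and 449 FPKM against 391, 284 and 277 (0.28 ± 0.24, adjusted p = 0.375), and H2-Eb1 had 279.9, 427 and 382 against 446, 307 and 313 (0.03 ± 0.25, adjusted p = 0.932). Cd74, the invariant chain that blocks the groove until the endosome, had 501, 699 and 527 FPKM against 707, 644 and 594 (-0.18 ± 0.23, adjusted p = 0.538). The groups overlap for all 4 genes, and standard errors of this size leave room for small changes in either direction. The scarce chain H2-Eb2 had 0.758 to 1.99 FPKM after LPS (mean 1.41) against 1.56 to 4.66 in saline (mean 3.00), without a call.

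The class II peptide editors split. H2-DMb1, a chain of the H2-DM molecule that removes the invariant chain peptide, rose from 51.8, 46.8 and 42.4 to 62.0, 74.5 and 78.1 FPKM (log2 change 0.60 ± 0.17, adjusted p = 0.0235); it lost the call without any 1 of the saline libraries or LPS library 3 (up to 0.13), and with equal totals or quantile normalization. H2-DMa, its partner, had 38.6, 53.3 and 46.8 FPKM against 44.6, 32.6 and 31.3 and did not pass (0.35 ± 0.20, adjusted p = 0.183). H2-Ob, the beta chain of the H2-DO molecule that restrains H2-DM in B cells, fell from 21.8, 11.8 and 14.4 to 5.16, 5.89 and 3.74 FPKM (-1.49 ± 0.25, adjusted p = 0.00222). Its alpha chain H2-Oa had 5.28 to 9.18 FPKM against 4.52 to 15.7, and H2-DMb2 13.8 to 21.98 against 17.5 to 40.5, neither with a call. Markers of B cells moved with H2-Ob: all 8 genes of that list fell, and their sum was 36.9 to 68.7 FPKM after LPS against 94.8 to 232 in saline. Their part in the class II values was not tested.

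Set against each other within a library, the classical chains of the 2 classes gave ratios after LPS and at 2 weeks that did not overlap saline. The FPKM of H2-K1 and H2-D1 summed was 0.674, 0.725 and 0.757 of that of H2-Aa, H2-Ab1 and H2-Eb1 summed in the saline libraries. After LPS the ratio was 1.27, 1.25 and 1.24, so class I exceeded class II in each. At 2 weeks after bleomycin it was 0.573, 0.483 and 0.571, below every saline library. The mean log2 ratio was 0.81 higher than saline after LPS and 0.41 lower at 2 weeks (a difference of -0.41), each with p = 0.1 in the exact two-sided permutation test, the smallest possible (0.257 adjusted over 18 ratio tests). Scaling of a library cancels in this ratio. With the 13 class I chains in the 3 tables set against 9 H2-named class II genes (the 4 chains and the 5 peptide editors), the differences were 0.83 and -0.43.

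**Figure D5:**
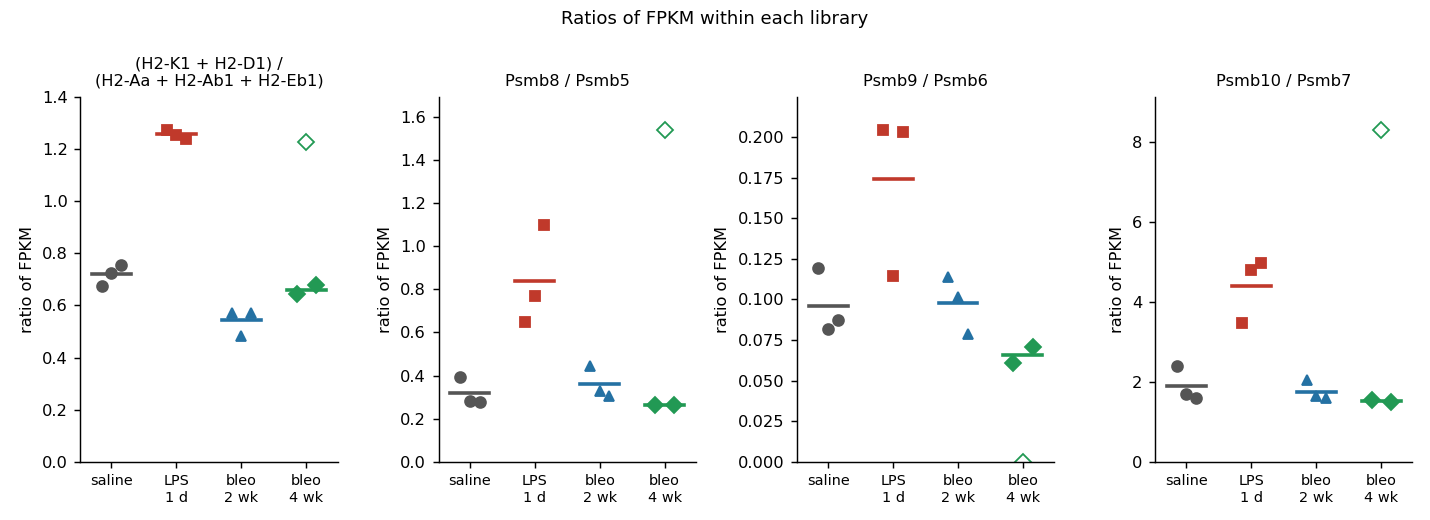
Ratios of FPKM within each library, on linear axes from 0: classical class I to class II chains, and each inducible proteasome subunit to the constitutive one it replaces; each symbol is 1 library, horizontal lines are group means, and the open diamond is 4-week library 2, left out of the mean. The LPS libraries lie at 1.24 to 1.27 in the first panel, above saline at 0.674 to 0.757 and the 2-week libraries at 0.483 to 0.573.

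The co-signalling ligands, which tell a T cell that has recognised a peptide to go on or to stop, rose in all 3 cases. Cd274 (PD-L1, which holds T cells back through PD-1) had 10.8, 5.06 and 5.97 FPKM in saline and 98.9, 72.3 and 120.1 after LPS, a log2 change of 3.60 ± 0.28 (adjusted p = 5.25e-05) and the largest among the members. Its promoter window (chr19:29367238-29367437, plus strand, GRCm38.p6) holds an interferon regulatory factor core, in capitals, and none of the other 3 patterns:
Cd274: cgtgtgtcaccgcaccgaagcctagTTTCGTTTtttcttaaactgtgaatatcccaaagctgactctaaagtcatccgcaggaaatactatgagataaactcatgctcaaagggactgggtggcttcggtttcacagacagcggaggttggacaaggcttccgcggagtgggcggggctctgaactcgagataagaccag
The window of Cd80 held none of the 4 patterns. Cd80 and Cd86, which stimulate T cells through CD28, rose from lower levels. Cd80 had 3.21, 2.06 and 3.24 FPKM in saline and 16.3, 14.1 and 15.1 after LPS (2.09 ± 0.19, adjusted p = 0.000124). Cd86 had 5.34, 3.74 and 3.86 and then 9.34, 10.8 and 12.8 FPKM (1.18 ± 0.20, adjusted p = 0.00227). No library of either group overlapped for any of the 3. H2-Ke6, outside these pathways, had 9.19, 15.7 and 9.59 FPKM after LPS against 15.5, 16.5 and 16.4, without a call.

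Other genes of the pathways show where the change reached. Of 6 interferon gamma signalling genes 3 rose: Ifng itself from 0.795 to 1.21 FPKM to 29.0 to 77.7 (log2 change 4.44), the feedback inhibitor Socs1 (1.97) and the receptor chain Ifngr2 (0.76). Among the transcription factors, Irf8 rose (1.19), Irf1 had 0.27 ± 0.25 (adjusted p = 0.397), and Rfx5, Rfxap and Rfxank, which bind class II promoters with Ciita, did not pass. Of 8 class II processing genes 6 rose, led by the cathepsin Ctss (2.04) and the thiol reductase Ifi30 (1.57). Of 8 loading chaperones and other peptidases 3 rose, namely Sec61a1 (0.71), Calr (0.70) and Thop1 (0.69). Outside the H2 names, 6 class I-like genes were tested: Procr rose (1.74), while Azgp1, Mr1 and Fcgrt fell (-1.04, -1.03 and -0.78). Among 8 tested co-signalling and adhesion genes 4 rose: Cd48 (1.57), Pdcd1lg2 (1.46), Lgals9 (1.16) and Icam1 (1.00). Pdcd1lg2 and March1, a class II processing gene that rose, were under 1 FPKM in every saline library. They passed the filter through the LPS libraries alone, so they had to differ. Azgp1 was under 1 FPKM in every LPS library and passed through the saline libraries alone, so it had to differ too.

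Markers of immune cells moved with these genes. After LPS 9 of 12 macrophage and monocyte genes rose, and their sum was 484 to 516 FPKM against 71.1 to 114 in saline. All 6 neutrophil genes rose (2603 to 7511 FPKM against 215 to 556), as did 5 of 8 T and natural killer cell genes (189 to 324 against 72.1 to 151). Of 6 dendritic cell genes tested 3 rose and 1 fell, with a sum of 109 to 116 FPKM against 60.5 to 94.2. Batf3, which rose, was under 1 FPKM in every saline library and passed the filter through the LPS libraries alone, so it had to differ. These immune cells make class I, and some of them Cd274, Cd80 and Cd86, and their part in the rise was not tested. All 4 pan-epithelial genes fell, from 496 to 587 FPKM to 201 to 295. Of 9 alveolar type 2 genes 6 fell (median log2 change -1.21), with a sum of 6731 to 11340 FPKM against 17801 to 22722. Of 4 club cell genes 3 fell, with a sum of 5223 to 11699 FPKM against 13126 to 18079. Type 2 cells carry class II, and their part in the class II values after LPS was not tested.

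At 2 weeks after bleomycin few members differed from saline. Of 40 members tested 7 rose and 2 fell, against 18.0% and 11.8% of all 12725 genes tested, so the share of members called did not exceed the background. The median log2 change was 0.14 over the members and 0.05 over all genes. Every 2-week library lay above every saline library in 9 of the 40 members and in 3618 of all 12725 genes. By class, 2 of 25 class I pathway genes rose and 1 fell, 3 of 11 class II genes rose, and 2 of 3 co-signalling ligands rose. H2-M2 passed the filter through the 2-week libraries alone; without it 6 of 39 members and 1 of 24 class I pathway genes rose. The count of members that rose depends on single libraries: it was 13 without saline library 1, 4 without saline library 3, 4 without 2-week library 1 and 3 without 2-week library 2. It was 13 with equal totals, which moved the median of all genes to 0.18 (3645 higher and 922 lower, against 2290 and 1496 as deposited), while quantile normalization gave 1925 higher and 2027 lower and median-ratio scaling 2012 and 1971.

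In class II, H2-Eb1 had 739, 528 and 464 FPKM, above its saline values of 446, 307 and 313 (log2 change 0.69 ± 0.21, adjusted p = 0.046). H2-DMa had 54.7, 58.4 and 44.7 FPKM against 44.6, 32.6 and 31.3 (0.54 ± 0.16, adjusted p = 0.0407), where the lowest 2-week library lay just above the highest saline library. H2-DMb1 had 68.3, 76.6 and 59.8 FPKM against 51.8, 46.8 and 42.4 (0.53 ± 0.12, adjusted p = 0.0147). The first pair lost their calls in 4 of the 6 fits that leave out 1 library (adjusted p up to 0.137 and 0.127) and under median-ratio scaling, and H2-DMb1 lost its call without saline library 3 (0.0544). H2-Ab1 had 529, 394 and 369.6 FPKM (0.44 ± 0.18, adjusted p = 0.112), H2-Aa 484, 411 and 347 (0.31 ± 0.17, adjusted p = 0.227) and Cd74 934, 659.7 and 626 (0.17 ± 0.16, adjusted p = 0.473); all 3 overlapped saline. Ciita, with 5.002, 5.003 and 3.47 FPKM, missed the threshold (0.52 ± 0.17, adjusted p = 0.0523). H2-Ob had 10.7, 13.0 and 8.68 FPKM and no call (-0.50 ± 0.23, adjusted p = 0.141).

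Most class I chains and their machinery had no call at 2 weeks. H2-K1 had 366, 237 and 254 FPKM (log2 change 0.13 ± 0.18, adjusted p = 0.617), H2-D1 638, 407 and 421 (0.06 ± 0.20, adjusted p = 0.845) and B2m 1437, 1031 and 1143 (0.14 ± 0.16, adjusted p = 0.535). H2-T23 had 87.1, 57.3 and 56.7 FPKM, H2-Q4 115, 75.7 and 79.4, and H2-M3 18.1, 18.8 and 14.0, and none of these passed. In H2-T22 the 33.9, 29.2 and 26.9 FPKM lay above saline without passing (0.36 ± 0.12, adjusted p = 0.0564). Tap1 had 11.5, 7.51 and 6.64 FPKM, Tap2 30.2, 23.6 and 21.99, Tapbp 103, 90.2 and 90.2, Psmb8 39.5, 34.8 and 28.9, Psmb9 7.41, 6.87 and 5.23, Psmb10 58.0, 52.4 and 48.3, and Psme1 46.2, 42.3 and 43.1. Of the 9 genes of the transport, immunoproteasome and activator groups limma called 0 in either direction (0 at an unadjusted p under 0.05). Nlrc5 did not pass either (3.35, 3.12 and 2.20 FPKM; 0.40 ± 0.19, adjusted p = 0.156). Library 1 was the highest of the 2-week group for most of these genes.

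Apart from H2-M2, the trimming enzyme Erap1 was the 1 gene of the class I pathway that rose at 2 weeks. It had 18.3, 18.6 and 16.7 FPKM against 13.1, 11.2 and 14.2 in saline (log2 change 0.45 ± 0.10, adjusted p = 0.0162), a call lost without 2-week library 2 (0.0536). H2-M2 had 7.13, 5.89 and 2.97 FPKM against 0.586, 0.703 and 0.737, the values that let it past the filter, so its test is not given. H2-Q1 had 11.97, 4.33 and 6.18 FPKM against 3.95, 0.253 and 3.62, above saline in every library without passing (1.37 ± 0.56, adjusted p = 0.11). H2-Q2 fell to 1.12 to 2.03 FPKM (-0.58, adjusted p = 0.0245), a call lost without any 1 of 5 libraries: the 3 of saline and 2-week libraries 1 and 3 (up to 0.0869). H2-Ke6 fell to 13.1, 9.74 and 10.95 FPKM (-0.49 ± 0.11, adjusted p = 0.0165) and lost its call without saline library 2 or 3 or 2-week library 3 (up to 0.0644). Of the ligands, Cd80 rose to 6.01, 8.28 and 6.40 FPKM (1.05 ± 0.17, adjusted p = 0.00397) and Cd86 to 8.21, 9.93 and 6.96 (0.82 ± 0.16, adjusted p = 0.00897). Cd274 had 12.6, 13.1 and 9.18 FPKM, which overlapped saline (0.66 ± 0.25, adjusted p = 0.0932).

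Among the other genes of the pathways at 2 weeks, 7 of 8 class II processing genes rose: Ctss (log2 change 2.70, with 571 to 876 FPKM against 81.1 to 143), the aspartic protease Ctsd (1.43), the asparaginyl protease Lgmn (1.31), Ifi30 (0.93), March1, Ctsb and Ctsl. March1 was under 1 FPKM in every saline library and passed the filter through the 2-week libraries alone, so it had to differ. Among the transcription factors, Irf1 had -0.72 ± 0.29 (adjusted p = 0.102). Of the interferon gamma list, Ifng rose (1.12, to 2.77 to 4.60 FPKM), with Ifngr2 (0.77) and Jak2 (0.55). Macrophage and monocyte markers rose in 8 of 12 genes, to a sum of 212 to 313 FPKM against 71.1 to 114, and dendritic cell markers in 6 of 9 (Batf3, Cd209a, Clec9a, Flt3, Itgax and Xcr1), to a sum of 85.6 to 118 FPKM over the 8 genes in all tables against 60.5 to 94.2. Batf3, Clec9a, Flt3 and Xcr1 were under 1 FPKM in every saline library. They passed the filter through the 2-week libraries alone, so they had to differ. Of 8 B cell markers 0 passed (2 at an unadjusted p under 0.05; sums of 61.7 to 114 FPKM). All 4 pan-epithelial and all 9 alveolar type 2 genes fell, the latter to 5567 to 7344 FPKM from 17801 to 22722. All 4 club cell genes fell as well, to 4264 to 7716 FPKM from 13126 to 18079. The class II chains and editors are made in those immune cells and in type 2 cells, and the part of each in the class II values was not tested.

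Compared directly, LPS at 1 day and bleomycin at 2 weeks differed in 26 of 40 members. Members were higher after LPS in 23 and lower in 3, against 10.4% and 23.8% of the 12488 genes tested. The 3 lower ones were H2-Ob (log2 difference -0.996 ± 0.22, adjusted p = 0.00807), H2-M2 (-0.90 ± 0.28, adjusted p = 0.0339) and H2-Eb2 (-0.75 ± 0.26, adjusted p = 0.045). Of 25 class I pathway genes 21 were higher after LPS; of 11 class II genes 0 were by limma (0 at an unadjusted p under 0.05) and 2 were lower. Those higher ran from Cd274 (2.94 ± 0.23, adjusted p = 2.77e-05), Psme2 (2.14) and Psmb10 (2.10) down to H2-M3 (0.78 ± 0.21, adjusted p = 0.0185). The classical chains H2-K1 and H2-D1 were near the low end (0.87 ± 0.25, adjusted p = 0.026, and 0.80 ± 0.27, adjusted p = 0.0434). The calls of H2-K1 and H2-D1 were lost with equal totals and with quantile normalization, and in 3 and 5 of the 6 fits that leave out 1 library (adjusted p up to 0.12 and 0.193). Those of B2m, H2-M3, H2-Q6, H2-Q7, H2-M2 and H2-Eb2 were lost in 3 or 4 of these fits. H2-Eb1 was lower after LPS in every library and did not pass (-0.66 ± 0.27, adjusted p = 0.0781). Values lower in every library were found in 3 of the 40 members and in 4570 of all 12488 genes. Cd80 was higher after LPS (1.05 ± 0.18, adjusted p = 0.00263) and Cd86 did not pass (0.36 ± 0.20, adjusted p = 0.178). Other scalings moved the median of all genes from -0.25 to -0.53 (equal totals, 756 higher and 5427 lower against 1303 and 2970 as deposited), -0.02 (quantile, 1666 and 1864) and -0.01 (median ratio, 2030 and 1742). The members lower after LPS were 8, 5 and 1 under those 3 settings.

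At 4 weeks after bleomycin no member passed against saline. With all 3 libraries limma called 0 of 12325 genes (0% of those tested) and 0 of 39 members, with 302 genes and 1 member (H2-M2) at an unadjusted p under 0.05. Without library 2 it called 177 of 12284 genes (1.44%) and 0 of 38 members, 3 of them at an unadjusted p under 0.05 (B2m, H2-Q6 and H2-Ob). H2-M5 and H2-Q10 did not pass the filter on low values, nor did H2-M2 without library 2. H2-M2 had 4.61, 19.9 and 3.51 FPKM, all above its saline values of up to 0.737. With all 3 libraries it passed the filter through the 4-week libraries alone, so it had to differ. In library 1 and the unnumbered library, H2-K1 had 255 and 288 FPKM, H2-D1 422 and 484, H2-Aa 323 and 374, H2-Ab1 346 and 339.8, H2-Eb1 386 and 428, and Cd74 472 and 613. All but Cd74 in library 1 lie within the saline range. In the same order, Tap1 had 3.88 and 4.83 FPKM, Tap2 22.6 and 22.1, Tapbp 77.1 and 83.3, and Nlrc5 1.26 and 1.59. Psmb8 had 23.1 and 23.5 FPKM, Psmb9 5.44 and 4.55, Psmb10 49.001 and 41.8, and Psme1 49.4 and 41.8. Psmb8 lay within the saline range in both libraries, Tap2 lay below it in both, and the other 6 of these genes lay within it in one library and below it in the other. Of 7 class II processing genes tested without library 2, Ctsd rose (log2 change 0.90 ± 0.13, adjusted p = 0.0323). B2m had 1744 and 1390.3 FPKM there, above all saline libraries (log2 change 0.53 ± 0.19, adjusted p = 0.196). The ratio of classical class I to class II chains was 0.642 and 0.676, against 0.674 to 0.757 in saline. Library 2 was unlike the others: H2-K1 had 17.3 FPKM, H2-D1 181, B2m 345 and H2-Aa 46.4, while Cd74 had 898, Psmb10 133 and Psme1 193, and H2-DMa, H2-M3, Tap1, Tap2, Psmb9, Erap1, Ciita, Cd274 and Cd80 were listed at 0. Its class ratio was 1.23.

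Between the 2 bleomycin times, limma called no gene with all libraries (0% of 12472 genes, 690 at an unadjusted p under 0.05; 0 of 39 members, 3 at an unadjusted p under 0.05). Without library 2, 5 of 39 members were lower at 4 weeks than at 2 and none was higher, against 7.34% and 1.95% of 12440 genes. The 5 included all 3 ligands. Cd86 had 3.50 and 4.16 FPKM (log2 difference -0.95 ± 0.17, adjusted p = 0.0187), Cd80 had 2.09 and 3.61 (-1.05 ± 0.21, adjusted p = 0.0249) and Cd274 had 5.68 and 6.34 (-0.83 ± 0.18, adjusted p = 0.0298), each below every 2-week library and close to saline. H2-DMa had 27.6 and 29.6 FPKM (-0.85 ± 0.16, adjusted p = 0.0187) and H2-T22 had 17.8 and 20.8 (-0.61 ± 0.15, adjusted p = 0.0477). In 1 fit of all 11 libraries other than library 2, Cd80, Cd86 and H2-DMa passed, and Cd274 (adjusted p = 0.113) and H2-T22 (0.063) did not. Just above the threshold in the fit of the bleomycin libraries were Nlrc5 (-0.67 ± 0.17, adjusted p = 0.0503) and H2-DMb1 (-0.59 ± 0.15, adjusted p = 0.0508). Between the same libraries 7 of 12 macrophage and monocyte markers fell, to a sum of 105 to 119 FPKM from 212 to 313. Of 9 dendritic cell markers 1 fell (Itgax), with sums of 55.7 to 67.3 and 85.6 to 118. All 4 club cell genes rose, to a sum of 15714 to 27134 FPKM from 4264 to 7716. Of 9 alveolar type 2 genes 6 rose, with a sum of 15716 to 19576 FPKM against 5567 to 7344. The part of these cells in the lower ligands and H2-DMa was not tested.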

How the data were processed

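Per the submitters' processing notes, the authors' tools included HISAT2 and StringTie, with build mm10 and no versions or roles. Per the file headers, the deposited values are FPKM for 12 libraries in 3 tables that share 3 saline libraries, with identical saline values (largest difference 0). The deposited fold changes and p-values were not used.

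The test for differences was limma's (version 3.58.1, R 4.3.3; lmFit and eBayes with a trend, two-sided) on log2(FPKM + 1), so the changes of low genes are understated. Each fit held the 2 groups compared, and a gene needed 1 FPKM or more in 3 or more of its libraries. P-values were adjusted by Benjamini-Hochberg over all genes tested, and calls were made at 0.05. Ratios were tested by exact permutation over libraries. The procedure was also run on simulated data with noise independent between genes, so that run does not vouch for the calls made here. The members, gene lists and tests were chosen with earlier results of these data known. Values by library are printed for 23 chosen members and for others past the threshold in a comparison whose higher group averaged 10 FPKM or more, with some scarcer ones as ranges. Alternatives were the pseudocount (0.1), the filter, 3 scalings, fits of 12 and 11 libraries, a replicate block and leaving out each library. Coding sequences were compared with Biopython 1.88. Protein sequences were not used here. Results for some items are not reported here, and for that reason no count is given for the transcription factors.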

Additional observations from a re-analysis of the deposited data

Results flagged for a closer look

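Between the 2 bleomycin times, 5 members differed in the fit of the bleomycin libraries when 4-week library 2 was left out, and none did with it. The log2 difference of 4 minus 2 weeks was -1.05 for Cd80, -0.95 for Cd86, -0.83 for Cd274, -0.85 for H2-DMa and -0.61 for H2-T22 (limma, adjusted p from 0.0187 to 0.0477). Each is the difference between the bleomycin effects at the 2 times, since both are measured against the same saline libraries. In 1 fit of all 11 libraries other than this one, 3 of the 5 passed, and Cd274 (adjusted p = 0.113) and H2-T22 (0.063) did not. The difference rests on 2 libraries at 4 weeks, 1 of which carries a number that matches no sample title.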

How the results depend on the processing

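In 1 fit of all 12 libraries, whose shared spread includes 4-week library 2, fewer genes passed. LPS against saline then gave 669 genes, 11 members that rose and 0 that fell (6300 genes and 30 members had an unadjusted p under 0.05 in the 6-library limma fit). Bleomycin at 2 weeks gave 134, 0 and 0, and LPS against 2 weeks 484, 8 and 0. The 12-library fit called 1 gene at 4 weeks against saline and 67 between the bleomycin times. In the fit of 11 libraries, without 4-week library 2, bleomycin at 2 weeks gave 1773 genes, 4 members that rose and 0 that fell; 4 weeks against saline gave 195 genes and 1 member that rose; and the bleomycin times gave 639 genes and 3 members lower. Scaling left 1 member that fell after LPS (median ratio, 1; quantile, 1), 13 that rose at 2 weeks (equal totals), and 1, 8 and 5 lower after LPS than at 2 weeks (median ratio, equal totals, quantile).

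Leaving out each library gave 2561 to 6693 genes, 19 to 26 members that rose and 1 to 2 that fell for LPS, where all genes dropped most without saline library 3 (2561) or 2 (2584), saline library 1 (2970) or LPS library 3 (2979). It gave 2153 to 3282 genes, 3 to 13 and 0 to 2 members at 2 weeks, and 0 to 177 genes at 4 weeks. For LPS against 2 weeks it gave 1919 to 6473 genes, 17 to 23 and 1 to 3 members, and 0 to 1155 genes and 0 to 5 lower members between the bleomycin times. The class ratio differed from saline by 0.76 to 0.85 on the log2 scale after LPS, by -0.45 to -0.33 at 2 weeks, and at 4 weeks by 0.18 with all libraries, -0.0603 with the 13 class I chains against 9 H2-named class II genes, -0.0553 with mean log2 values and -0.12 to 0.34 without 1 library. The cause was not tested, other than by leaving out libraries. The labels do not say whether a shared replicate number pairs libraries. Deviations of same-number libraries from their group means correlated at -0.16 to 0.11, which cannot decide it with 3 libraries a group. As a replicate block the numbers gave 12 members that rose at 2 weeks and 2 genes between the bleomycin times. Depth is unknown, so low values such as those of H2-M2 and H2-Q2 carry no counting error.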
